A study of Drosophila melanogaster with 3 samples.

Results

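The genes described here encode 3 related sets of immunoglobulin-domain receptors by which neurons recognise each other and their targets: the 21 dpr genes, the 11 DIP genes, and the 14 beat genes with side. They were chosen by symbol among the protein-coding genes of the Ensembl annotation of the fly genome, as those named dpr with a number, those starting with DIP- or beat-, and side. This gave 47 of 13945 protein-coding genes. Most are long. The median length was 33.6 kb, with a range of 3.74 kb in dpr19 to 379 kb in DIP-lambda, against a median of 2.17 kb over all protein-coding genes. A single transcription start site (TSS) was annotated for 35 of them, 2 for 11 and 3 for dpr17.

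Dpr proteins (named for the defective proboscis extension response of the first mutant) and DIPs (Dpr-interacting proteins) are cell-surface partners that bind each other in specific pairs, and different neurons carry different sets of them. DIP-alpha pairs with Dpr6 and Dpr10, for example, and DIP-gamma with Dpr11. Beaten path (Beat) proteins act in a comparable system with Sidestep (Side) proteins. Beat-Ia on motor axons detects Side on the surfaces the axons follow to their muscles. These families are studied for their part in axon guidance and in the choice of synaptic partners.

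The study mapped Scalloped (sd), the fly TEA-domain transcription factor, by ChIP-seq with an antibody against GFP in whole mixed-sex embryos aged 4 to 20 h. The age is from the source label, since a separate age entry holds a far larger number of hours and was not used. All embryos came from a single transgenic line that stably expresses Scalloped with GFP fused to its C terminus. The promoter of the transgene is not given in the sources used here. The series has 3 biological replicates of this 1 group and no second condition, so nothing was compared between conditions. Each replicate and their pool were deposited as a list of 30000 peaks, and 10553 peaks made up a separate list, thresholded on the irreproducible discovery rate (IDR, a measure of how well the ranks of a peak match between replicates). By the authors' signal value, their measure of peak strength, those 10553 were the strongest of the pool. Signal values are on a different scale in each list, so ranks within a list are used to set lists beside each other. Read totals were not in the files used here and the depth is unknown, so a summit that was not listed was not detected at this unknown depth. In whole embryos, binding in few cells cannot be told apart from weak binding in many. The lists hold no expression values, so the cell types present could not be checked against marker genes.

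Scalloped summits were scarce at the start sites of these genes. An IDR summit lay within 1 kb of a TSS in 5 of the 47 genes (10.6%, 95% exact Clopper-Pearson interval 3.55 to 23.1%), against 30.5% of all protein-coding genes. The number of TSSs sets how much room there is for a summit near a TSS, and gene length sets it for the gene body. Each member was therefore also set beside the 50 other protein-coding genes closest to it in length with the same number of TSSs, called like genes here. Of these 2350 places, filled by 1073 different genes, 41.2% had a summit, which would correspond to 19.4 genes of 47. All 5 genes with a summit were dpr genes (5 of 21, 23.8%, interval 8.22 to 47.2%, against 40.0% of their like genes). None of the 11 DIP genes had one (interval up to 28.5%, against 43.3% of like genes), and none of the 15 beat and side genes (interval up to 21.8%, against 41.3% of like genes). The intervals treat related genes as independent and cover counting error only. The dpr interval includes the share of its like genes, while the DIP and the beat and side intervals do not. No test was made of these differences or of a difference between the families.

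The scarcity was also present in each replicate taken alone. Among the 10553 strongest peaks of replicates 1, 2 and 3, a summit within 1 kb of a TSS was found for 5, 5 and 4 of the 47 genes (9.93% ± 1.23, SD, n = 3), against 4000, 4923 and 4271 of all protein-coding genes (31.5% ± 3.4). No DIP, beat or side gene was among them in any replicate. Among all 30000 peaks of each replicate, 10 genes had such a summit in replicate 1, 10 in replicate 2 and 10 in replicate 3. They were the same 10 genes each time, and the pooled list gave those 10 as well (21.3%, interval 10.7 to 35.7%), against 42.7% of all protein-coding genes and 60.7% of like genes. Besides the 5 dpr genes, these were dpr3, dpr6, beat-IIIc, beat-IIa and side. Still no DIP gene had a summit within 1 kb of a TSS, against 61.3% of like genes in the pooled list.

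**Figure D1:**
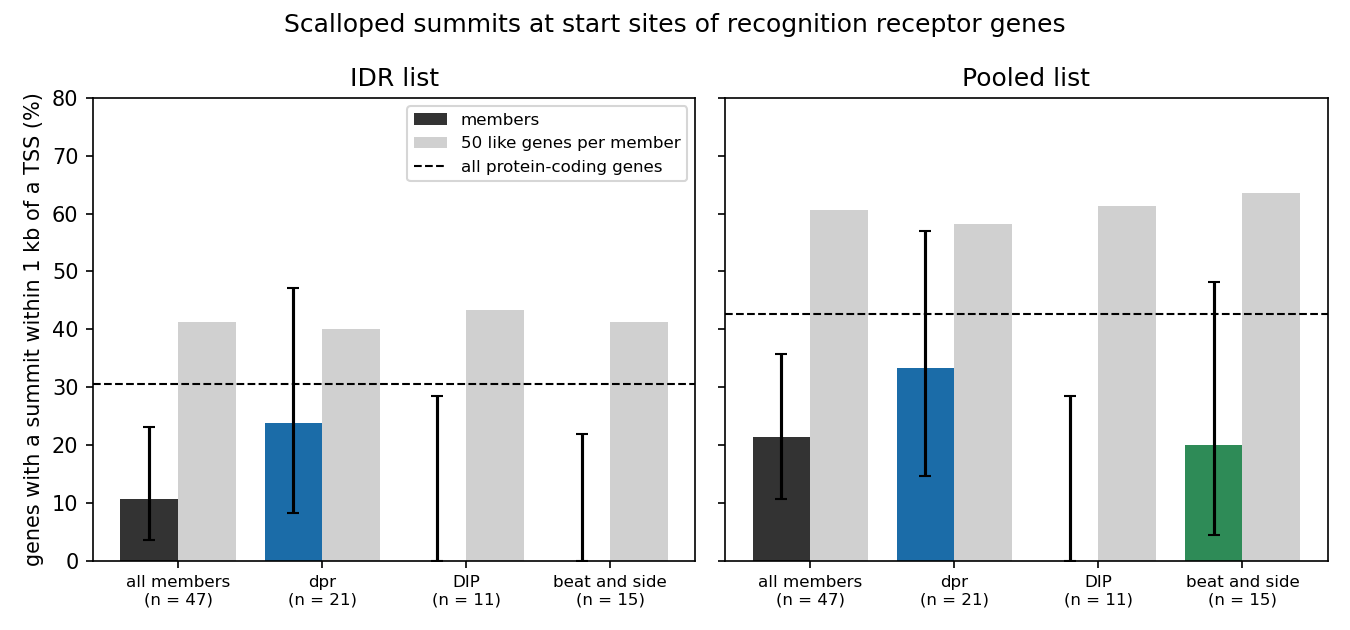
Share of genes with a Scalloped summit within 1 kb of a TSS (y axis, percent) in the IDR list (left panel) and the pooled list (right panel), for all 47 members and for each family (dark or coloured bars, with 95% exact Clopper-Pearson intervals) beside their like genes (light grey bars) and all protein-coding genes (dashed line at 30.5% and 42.7%). DIP genes have no bar in either panel, and beat and side genes have none in the IDR list.

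The 5 dpr promoters with an IDR summit differed in strength and in how clearly the summit belonged to the dpr gene. At dpr2 the summit lay at 10964617 on 2L (dm6, peak interval 10964418 to 10964829), 464 bp upstream of the TSS, between dpr2 and the 3′ end of Tmem214. Its signal value was 405 in replicate 1, 622 in replicate 2 and 597 in replicate 3, and it ranked 1564, 330 and 1171. Replicate 2 thus placed it higher than the other replicates did, and in the IDR list it ranked 861. The dpr14 summit, at 7908726 on X (interval 7908507 to 7908932), lay 440 bp upstream of dpr14 and closer, at 205 bp, to the TSS of spidey, a steroid dehydrogenase gene that is transcribed in the opposite direction. Its signal value was 420.4, 231 and 380.3 in replicates 1, 2 and 3 (ranks 1460, 2528 and 2656), and it ranked 2048 in the IDR list. When each summit was given only to the gene with the nearest coding TSS, dpr14 had none and 4 genes were left.

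The other 3 dpr promoters had weak summits from the lower part of the IDR list. The dpr17 summit, at 12094813 on 3R (interval 12094711 to 12094934), lay 63 bp upstream of the first of its 3 TSSs and ranked 6251. Its signal value was 173, 99.1 and 219 in replicates 1, 2 and 3, where it ranked 6019, 8425 and 6086. The dpr20 summit, 579 bp upstream of the TSS at 857827 on 3L, ranked 9158, with ranks of 9584, 8481 and 11090 in the replicates. The dpr10 gene had a pair of summits at its start, 56 bp upstream (10186164 on 3L, rank 10177) and 580 bp downstream (10185528, rank 9741) of the TSS. Both were found in all 3 replicates, at ranks from 8908 to 12941. The last peak of the IDR list has rank 10553, so dpr10 and dpr20 lay close to its threshold, and dpr20 had no TSS summit in the top peaks of replicate 3.

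In 5 further genes the promoter summit was too weak for the IDR list. It lay 691 bp upstream of dpr3 (rank 16138 of 30000 in the pooled list), 261 bp upstream of dpr6 (18610), 24 bp upstream of beat-IIIc (13829), 137 bp downstream of a TSS of beat-IIa (13839) and 40 bp upstream of side (19121). All 5 were seen within 100 bp in replicates 1, 2 and 3. DIP-alpha came nearest among the DIP genes, with a pooled summit 1212 bp downstream of a TSS (rank 15275), inside an overlapping gene, ppk8, and 933 bp from the ppk8 TSS.

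For most members the closest IDR summit was far from any of their start sites. The median distance from a member's TSSs to the nearest IDR summit was 26.2 kb, against 3.01 kb for like genes and 4.35 kb for all protein-coding genes. By family it was 15.0 kb for dpr genes, 49.9 kb for DIP genes and 39.8 kb for beat and side genes, against 3.18, 2.49 and 3.11 kb for their like genes. The nearest IDR summit was over 10 kb away for 35 of the 47 genes (74.5%, against 32.7% of like genes) and over 50 kb away for 13 (27.7%, against 10.7%). By family, 57.1% of dpr genes were over 10 kb away (against 33.1% of their like genes) and 81.8% of DIP genes (against 31.1%). In the beat and side family, 14 of 15 genes were (93.3%, against 33.3%), beat-IIIc being the exception. Of the genes inside the 1 kb limit, dpr20 was the farthest at 579 bp, and those next beyond it were beat-IIIc at 1641 bp, DIP-alpha at 1991 bp and dpr6 at 2351 bp. In the pooled list the median distance was 9.28 kb for members and 0.320 kb for like genes.

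**Figure D2:**
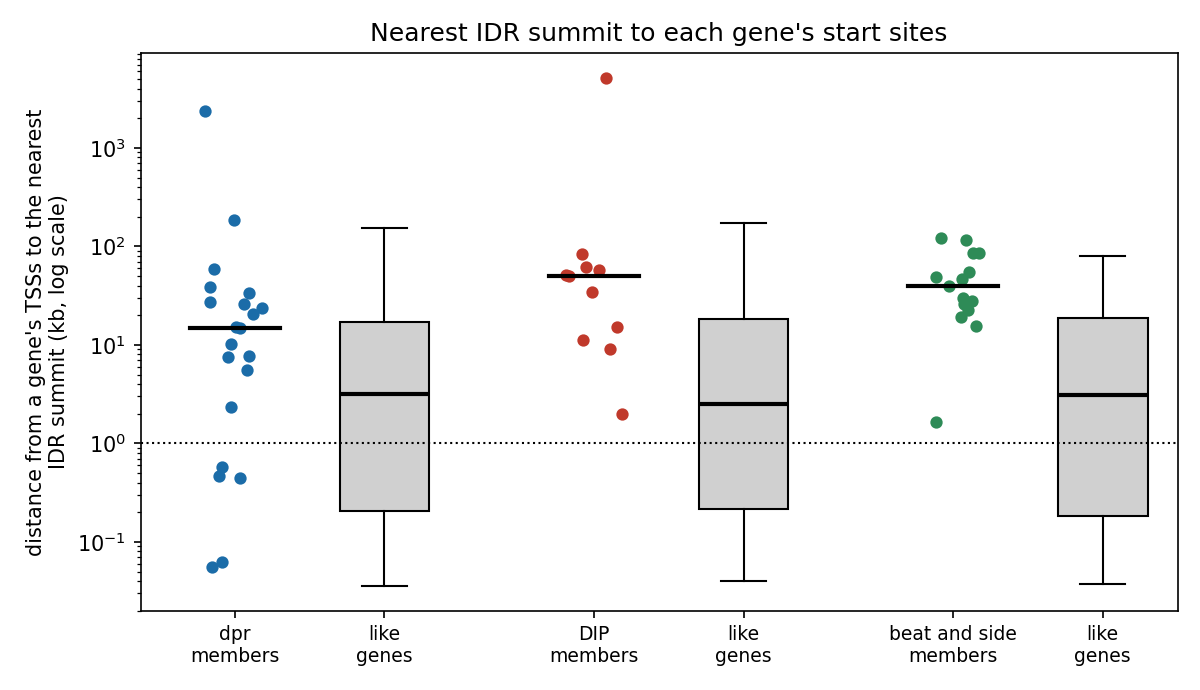
Distance from each gene's TSSs to the nearest IDR summit (y axis, kb, log scale). Coloured points are the dpr, DIP and beat and side genes, each with its median as a black bar, and the grey boxes to their right show their like genes (median, quartiles, and whiskers from the 5th to the 95th percentile). The dotted line marks 1 kb: 5 dpr genes lie under it, and no DIP, beat or side gene does.

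Some of the longest distances fell in regions with no peaks at all. DIP-lambda, which at 379 kb is the longest member, lay 5090 kb from the nearest summit of either list, and dpr21 lay 2350 kb away. Both are on 2R (DIP-lambda from 326768 to 705848, dpr21 from 3066499 to 3191011), at the centromere end of the arm, where the sequence is rich in repeats. On chromosome 4, which has few Scalloped peaks, dpr7 (247124 to 253329) was 184 kb from the nearest summit. How well reads could be placed in these regions is unknown and was not tested. Without these 3 genes, 5 of 44 members had an IDR summit at a TSS (11.4%), against 41.4% of like genes, and the median distance was 25.0 kb, against 3.01 kb.

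The bodies of these genes held few summits too, given their length. In total 28 IDR summits lay inside 11 of the 47 genes (23.4%, against 19.8% of all protein-coding genes, most of which are far shorter, and 50.8% of like genes). Over 2.17 Mb of gene bodies this was 12.9 summits per Mb, against 57.3 in like genes and 82.3 over all protein-coding genes. At the mean of their like genes, the 47 members would have held 102 summits. For the longest members the match on length was loose. Like genes were 73.2 to 709 kb long for DIP-lambda, and 70.6 to 225 kb for dpr6 and dpr8. Density was 1.45 per Mb in DIP genes, 10.1 in dpr genes and 30.6 in beat and side genes, against 58.5, 52.7 and 62.5 in their like genes. The DIP value was 3.22 per Mb without DIP-lambda, and the beat and side value was 15.1 per Mb without beat-Ib. Without dpr7, dpr21 and DIP-lambda the density over members was 16.9 per Mb, against 61.4 in like genes. In the 10553 strongest peaks of replicates 1, 2 and 3, members held 24, 20 and 22 summits (22.0 ± 2.0, SD, n = 3), of which DIP genes held 1 in each replicate.

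Of the 28 summits, 27 lay in introns and 1 in the 3′ UTR of dpr20. None lay in coding sequence. From the member's own TSS, 23 of them were over 10 kb away. Another protein-coding gene's TSS was within 1 kb for 3 summits, and the TSS of a noncoding gene was the closest and within 1 kb for 6. A further 18 were over 1 kb from every annotated TSS. These positions were not counted over all IDR summits or in like genes, so they are not shown to be particular to the members. Of the 28 summits, 10 belong to 1 cluster in beat-Ib. At least 1 other protein-coding gene lay wholly inside the bounds of 18 members, which was not counted for like genes either.

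A single cluster in beat-Ib made up 35.7% of the body summits. Beat-Ib is a close relative of Beat-Ia. Its gene (2L, 15905134 to 15962435) held 10 IDR summits within 4.84 kb, from 15908949 to 15913794, all in its second intron and 48641 to 53486 bp downstream of the TSS. They lay in 4 peak intervals around a pair of noncoding genes, lncRNA:CR44867 and lncRNA:CR44868, and 3094 to 6895 bp from the nearest coding TSSs, those of CG13244 and CG31821. The strongest, at 15908949 (interval 15908631 to 15909350), had a signal value of 557, 336 and 674 in replicates 1, 2 and 3 (ranks 855, 1219 and 932) and ranked 946 in the IDR list. The next ranked 1332, 1416 and 2491, and the weakest 10311. Its neighbours beat-Ia and beat-Ic, which lie on the same arm, had no IDR summit at all. Leaving out beat-Ib, 18 summits remained in the other 46 genes, or 8.53 per Mb.

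The strongest summit of any member lay in beat-VII, at 26655735 on 3R (interval 26655466 to 26656061). It was in the seventh of 8 introns, 26231 bp downstream of the TSS, and 705 bp from the TSS of Tb, a cuticle protein gene that lies inside beat-VII. Its signal value was 834 in replicate 1, 532 in replicate 2 and 1072 in replicate 3, at ranks 370, 471 and 338, and it ranked 362 in the IDR list. It was the only IDR summit in beat-VII, and 7 weaker summits of the pooled list lay in the gene. In dpr6 (3L, 9974651 to 10139360), too, both IDR summits lay near a gene inside it, in the last intron by the TSS of CG32054, 67 bp (10094805, rank 6467) and 820 bp (10095558, rank 8405) away.

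Body summits whose nearest coding TSS was that of the member were found in beat-IIIc, side, dpr10 and dpr12. In beat-IIIc (2L, 17187637 to 17260734), 4 IDR summits were spread over the first 2 introns, 1641, 5782, 19064 and 31410 bp downstream of the TSS. The strongest, at 17254952 (interval 17254736 to 17255217), had a signal value of 342, 260.3 and 441 in replicates 1, 2 and 3, and its rank hardly differed between them (2158, 2027 and 2050). In side, which codes for the ligand of Beat-Ia (3R, 27375088 to 27437482), 3 IDR summits lay in the first 2 of 17 introns, 15482 to 30146 bp downstream of the TSS. The strongest, at 27407336 (interval 27406888 to 27407704), had a signal value of 278, 211 and 310.0 (ranks 3094, 2981 and 3728). The whole side gene held 23 pooled summits, the most of any member, followed by beat-IIIc with 17. In dpr12, the summit lay in the first intron, 15091 bp from the TSS, and ranked 9707.

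DIP-alpha (X, 3507245 to 3571649) had the sole IDR summit inside a DIP gene. It lay at 3546349 (interval 3546126 to 3546595), in the second of 10 introns and 15684 bp upstream of the nearest of the gene's 2 TSSs, with the start of lncRNA:CR34335, a noncoding gene, 239 bp away. Its signal value was 287, 233 and 393 in replicates 1, 2 and 3, and its rank of 2913, 2503 and 2515 varied little. The gene held 11 pooled summits in all. The Dpr partners of DIP-alpha, dpr6 and dpr10, held 11 and 8 pooled summits in the body. Of the 21 dpr genes, 8 held any (38.1%, against 67.6% of like genes and 27.9% of all protein-coding genes). Pooled density over dpr genes was 43.8 per Mb, against 192 in like genes. At 165 kb dpr6 is the longest dpr gene, and several of its pooled summits lay within 1 kb of the TSS of a gene inside it. DIP-gamma held 5 pooled summits, none in the IDR list. Its example partner named above, dpr11, held 6, of which 1 was in the IDR list (6585718 on 3R, rank 8641, with the start of lncRNA:CR46131 287 bp away). No other DIP gene held a pooled summit in its body. A further IDR summit lay outside DIP-alpha, 1991 bp from a TSS. Beat-Ia and its ligand were unlike: beat-Ia held no pooled summit and side held 23. Only the pairs named as examples were set beside each other, and any other binding partners were left out. Whether the values of binding partners go together was not tested.

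**Figure D3:**
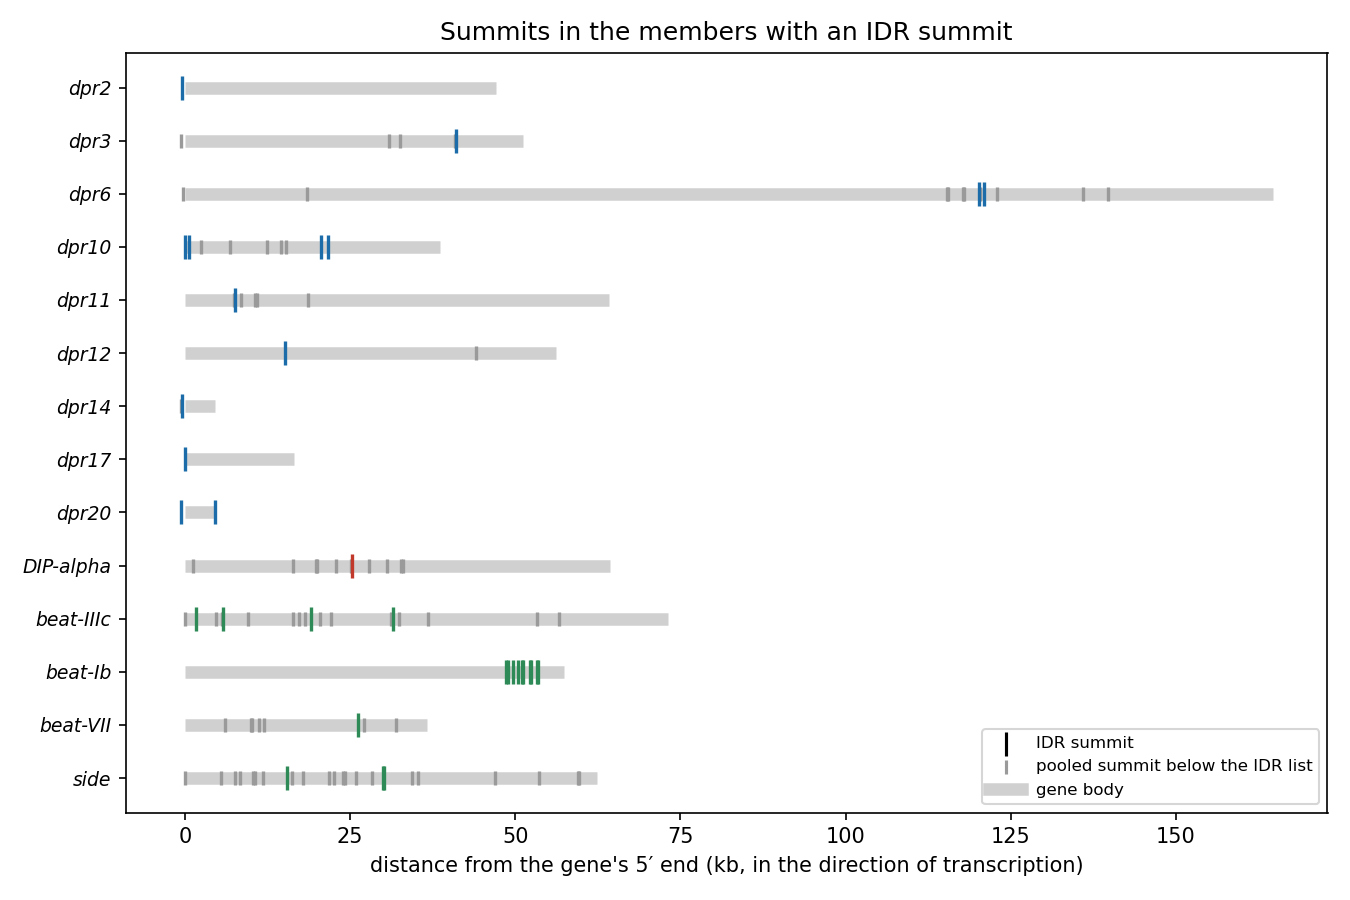
Positions of summits in the 14 members with an IDR summit in the body or within 1 kb of a TSS. The x axis is the distance from the gene's 5′ end in kb in the direction of transcription, light grey bars are gene bodies, tall coloured ticks are IDR summits (blue dpr, red DIP, green beat and side) and short grey ticks are pooled summits below the IDR list. The 10 summits of beat-Ib stand in 1 block, whereas those of side and beat-IIIc are spread along the gene.

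The other 33 members (70.2%, against 42.6% of like genes and 66.1% of all, mostly shorter, protein-coding genes) had no IDR summit in the body or within 1 kb of a TSS. Among dpr genes these were dpr1, dpr4, dpr5, dpr7, dpr8, dpr9, dpr13, dpr15, dpr16, dpr18, dpr19 and dpr21. Among DIP genes they were DIP-beta, DIP-gamma, DIP-delta, DIP-epsilon, DIP-zeta, DIP-eta, DIP-theta, DIP-iota, DIP-kappa and DIP-lambda. In the third family they were beat-Ia, beat-Ic, beat-IIa, beat-IIb, beat-IIIa, beat-IIIb, beat-IV, beat-Va, beat-Vb, beat-Vc and beat-VI. In the pooled list, 26 members had none (55.3%, against 24.6% of like genes and 55.2% of all protein-coding genes). Weaker pooled summits in the body were found in dpr8 (6), beat-IIa (5), DIP-gamma (5), beat-VI (4), beat-IIb (3), dpr1 (1) and beat-IV (1). In the end 23 genes had no summit in the pooled list or in any replicate's 30000 peaks: 9 dpr genes, 9 DIP genes and 5 beat genes. The same was not counted over like genes or all protein-coding genes, so this number is not shown to be particular to the members. None of beat-Va, beat-Vb and beat-Vc had a pooled summit, nor did beat-IIIa and beat-IIIb, whereas beat-IIIc held 17.

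Somewhat more of the summits that were found lay in the weaker part of the IDR list than in the stronger. In all, 33 IDR summits lay in a member or within 1 kb of its TSS, at ranks of 362 to 10542 with a median of 6505. Of these, 12 (36.4%, interval 20.4 to 54.9%) had a signal value above the median of the list, and the interval includes an even split. In that list their signal value had a median of 471, against 553 over all of its summits. A summit within 100 bp was found in all 3 replicates for 31 of 33 (93.9%, interval 79.8 to 99.3%), against 91.4% of all IDR summits. When the match had to be among the 10553 strongest peaks of each replicate, this held for 16 of 33 (48.5%, interval 30.8 to 66.5%), against 67.4% of all IDR summits. The 2 summits without a match in all 3 full lists lay in beat-Ib (15913590) and dpr3 (2068836). Neither had a summit within 100 bp in replicate 3. With 250 bp allowed, 97.0% of the 33 had a match in all 3 replicates. Of the 103 summits that were in the pooled list only, 35 (34.0%, interval 24.9 to 44.0%) were found in all 3 replicates. The intervals over summits, here and for the motifs below, treat summits as independent. Among the 33, however, 10 lie in 4 peak intervals of beat-Ib.

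**Figure D4:**
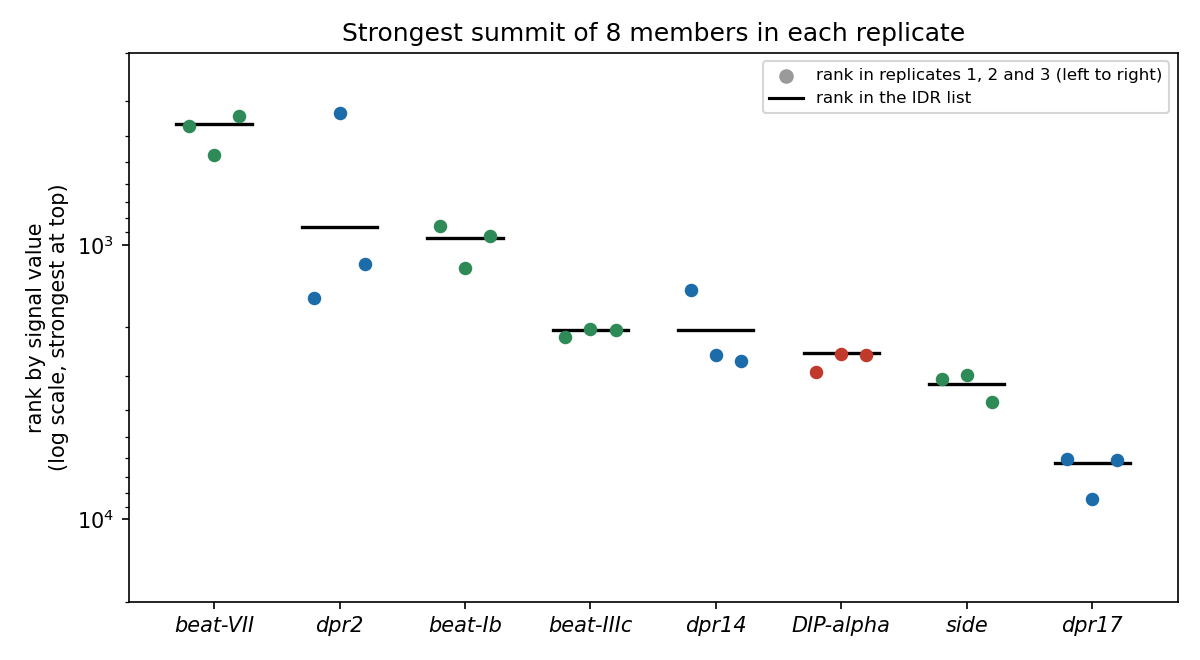
Rank by signal value (y axis, log scale, strongest at the top) of the strongest IDR summit of the 8 members with the highest-ranked summits, in replicates 1, 2 and 3 (points, left to right) and in the IDR list (black bars). The order of ranks in the IDR list runs from 362 in beat-VII to 6251 in dpr17, and dpr2 has the widest spread on the log axis, from 330 to 1564.

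The sequences at the summits were read to see whether they hold the core site of TEA-domain factors, CATTCC. Windows of 101 bp around the summits, on the plus strand of dm6, came from the RefSeq genome of the same assembly. They are printed for the strongest summit within a gene (beat-VII) and at a promoter (dpr2). Windows are also printed for the strongest summits with CATTCC within 100 bp, those of beat-IIIc, dpr17 and dpr6 (ranks 2039, 6251 and 6467). Weaker summits with CATTCC were not printed, so these need not be the summits with the site closest by. Capitals mark CATTCC on either strand (GGAATG on the printed one) or its near match AATTCC (also GGAATT).
beat-VII, intron, chr3R:26655685-26655785: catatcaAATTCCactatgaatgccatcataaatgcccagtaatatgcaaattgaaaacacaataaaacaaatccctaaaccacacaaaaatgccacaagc
dpr2, upstream of the TSS, chr2L:10964567-10964667: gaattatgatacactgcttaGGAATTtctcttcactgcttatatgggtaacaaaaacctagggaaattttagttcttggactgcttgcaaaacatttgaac
beat-IIIc, first intron, chr2L:17254902-17255002: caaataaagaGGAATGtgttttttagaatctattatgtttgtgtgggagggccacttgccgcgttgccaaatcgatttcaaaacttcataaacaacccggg
dpr17, upstream of the TSS, chr3R:12094763-12094863: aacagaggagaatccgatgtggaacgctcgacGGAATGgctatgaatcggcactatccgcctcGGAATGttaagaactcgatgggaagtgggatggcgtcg
dpr6, at the TSS of CG32054, chr3L:10094755-10094855: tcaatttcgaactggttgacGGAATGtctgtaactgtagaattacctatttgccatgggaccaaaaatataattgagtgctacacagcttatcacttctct
The beat-VII and dpr2 windows each held 1 AATTCC and no CATTCC. The dpr17 window held 2 CATTCC sites, 1 on either side of the summit and each 13 bp from it at its nearer end, and those of dpr6 and beat-IIIc held 1 each, 25 and 35 bp from the summit.

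Within 100 bp of the summit and on either strand, CATTCC was present at 5 of the 33 member summits (15.2%, interval 5.11 to 31.9%). These were the beat-IIIc, dpr17 and dpr6 summits printed above and those in dpr11 and dpr12. Over all IDR summits the share was 19.8%, and it was 8.63% in equally wide flanking windows lying 1000 to 1200 bp from those summits. In such windows beside the member summits themselves it was present in 5 of 43 (11.6%, interval 3.89 to 25.1%). The interval at the member summits includes all 3 values, so 33 summits are too few to tell the share apart from any of them. None of the 10 summits in beat-Ib had the site, and the share was 21.7% over the others. AATTCC was present at 10 of 33 (30.3%, interval 15.6 to 48.7%), against 23.5% of all IDR summits, and in 9 of 43 windows beside the member summits (20.9%), against 11.0% of those beside all IDR summits. CTACTC, a permutation of the letters of CATTCC, was present at 1 of 33 (3.03%), against 3.63%. The windows of CATTCC and AATTCC were counted separately, so a summit can count for both. A match describes the sequence and does not show that Scalloped bound there.

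Relatives and functional neighbours of these genes were counted in the same way. Of the 7 other sidestep genes, some of which code for known partners of Beat proteins, side-IV alone had an IDR summit within 1 kb of a TSS (rank 10068). This is 14.3% (interval 0.361 to 57.9%), against 38.0% of like genes. The bodies of side-IV and side-V held 4 IDR summits each and that of side-VIII held 1, while side-II, side-III, side-VI and side-VII held none. Among 28 other immunoglobulin-family recognition and adhesion genes of the nervous system, 15 had an IDR summit at a TSS (53.6%, interval 33.9 to 72.5%), against 46.2% of their like genes. They were Lac, Nrg, Ptp69D, robo3, Fas3, unc-5, Fas2, tutl, robo2, robo1, kirre, fra, Lar, tei and ed, in the order of their strongest TSS summit. Lac (rank 775) and Nrg (887) encode septate junction proteins, Ptp69D (942) and Lar (7148) encode receptor phosphatases of axons, and robo3 (1499), robo2 (3203) and robo1 (5970) encode the receptors for Slit. The 4 Dscam genes had no IDR summit at a TSS. The bodies of the 28 genes held 42.6 IDR summits per Mb, against 69.8 in their like genes and 12.9 in the 47 members. These lists were not tested against each other.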

How the data were processed

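ChIP-seq peak lists of 3 biological replicates, their pool and an IDR-thresholded list, all on dm6 and derived from alignments set against 1 control alignment, were used as deposited, per the file headers. Chromatin was sonicated to 200 to 800 bp, per the labels. The aligner, caller and IDR threshold are not given in the sources used here. The deposited signal value ranked peaks within each list. The deposited −log10 q value was 4.38 for 100% of IDR peaks and was not used further. The summit was column 2 plus column 10 of a list, written 1-based. Genes came from Ensembl release 115 (BDGP 6.54, dm6 coordinates), and all 47 members had the same start and end in RefSeq. Genes and peaks on 2L, 2R, 3L, 3R, X and 4 entered. Like genes were the 50 non-members closest in log length with the same number of TSSs, 5 or more being 1 class. They were not matched on gene activity, open chromatin or arm. Summits within 100 bp were called shared. Flank windows with an IDR summit within 500 bp of their ends were left out. Every member with an IDR summit at a TSS, and every member with no IDR summit, was to be named, and replicate values to be given for the 8 with the highest-ranked summit. The members and lists were chosen with earlier results of these data known. With 1 group, no test was made. Counting was tested on planted summits and motifs. Intervals came from scipy 1.17.1, in Python 3.11.15 with pandas 2.3.3, numpy 2.4.6 and, for figures, matplotlib 3.10.9. Alternatives were other distances, thresholds, replicates and gene assignments.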

Additional observations from a re-analysis of the deposited data

How the results depend on the processing

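Of 76 alternative values, 66 stayed within 1.5 times the reported count or density or within the interval of the reported share, and 10 did not. The 5 members with an IDR summit at a TSS, all dpr genes, became 2 when the weaker part of the IDR list, up to its median signal, was left out, and the 28 body summits became 10. With 2000 bp in place of 1 kb, 1 DIP gene and 1 gene of the beat and side family had an IDR summit. Leaving out genes was chosen after seeing the data. Without beat-Ib there were 18 body summits, with 15.1 per Mb in place of 30.6 for beat and side genes, and leaving out DIP-lambda gave 3.22 per Mb in place of 1.45 for DIP genes. The 93.9% of member summits found in all 3 replicates became 78.8% within 50 bp and 48.5% in the top peaks of each replicate. Without each replicate in turn, which can only remove summits, the count at TSSs was 5 to 5 and in bodies 26 to 28, and the CATTCC share was 15.2 to 16.1%. Under the other alternatives the count at a TSS stayed 0 for DIP, beat and side genes. Most of these can only remove summits or genes, so a count of 0 could not change. They are still among the 66 values that stayed. Besides the 2000 bp limit, only overlap of the peak interval and the top peaks of each replicate could have added a gene, and they added none. No paired analysis was possible because the series has 1 group. The unknown depth limits what an unlisted summit means.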
